A study of Mus musculus with 8 samples.

Results

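The 8 genes described here encode prolyl isomerases of the endoplasmic reticulum (ER) from the FKBP and cyclophilin families. They were chosen by gene symbol, as Fkbp2, Fkbp7, Fkbp9, Fkbp10, Fkbp11, Fkbp14, Ppib and Ppic, and all 8 were among the 16538 genes of the expression table. RNA was sequenced from DN3 thymocytes, the CD4-negative and CD8-negative stage of T cell development at which β selection takes place, sorted from 6-week-old C57BL/6 mice. The 4 control libraries carried Sel1l f/f alleles without Cre and were titled wild type by the submitters. The 4 Sel1l CKO libraries carried Sel1l f/f together with the hCD2-iCre transgene, which is active from early thymic progenitors onward and in other lymphoid cells. Sel1l encodes the adaptor of the Hrd1 ubiquitin ligase in ER-associated degradation. Loss of Sel1l and presence of the transgene cannot be told apart, since no control carried Cre.

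Peptide bonds that precede proline switch slowly between cis and trans, and prolyl isomerases speed this step of protein folding. FKBPs bind FK506 and cyclophilins bind cyclosporin A, and both families have members in the cytosol, the nucleus, the mitochondria and the ER. In the ER lumen these enzymes act beside chaperones and disulfide isomerases on proteins of the secretory pathway, and several are best known from collagen-producing cells.

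The number of reads counted on genes was between 32900250 and 50401356 per library. For Sel1l, the targeted gene, the control libraries 1 to 4 gave 1.83, 1.66, 1.61 and 1.57 RPKM, and the CKO libraries 1 to 4 gave 0.917, 0.876, 1.32 and 1.23. Every Sel1l CKO library was below every control library, by a log2 fold change of −0.59 (SE 0.13, limma adjusted p = 0.0417), and reads remained in each of them. RPKM here is reads per kilobase of gene span, introns included, and scaled to the total of reads on genes. Fold changes are differences of log2(RPKM + 0.1), which understates the change of low genes. Among 10177 genes with a mean of at least 0.1 RPKM, 303 were higher and 98 lower in Sel1l CKO at a limma adjusted p under 0.05. The study's methods describe replicates as independent biological samples, and the labels do not tie a library to a mouse. DN3 markers such as Ptcra (25.8 to 30.5 RPKM in control, 17.5 to 27.2 in Sel1l CKO) and Il2ra (16.9 to 18.4 and 17.4 to 23.1) were high in all 8 libraries, and 0 of 14 DN3 markers passed the test. The summed level of the 14 was lower in Sel1l CKO without overlap, at 871 to 952 RPKM in control and 796 to 826 in Sel1l CKO. Only Il2ra (0.15) and Tcf7 (0.09) had a positive log2 fold change. The others were negative, down to −0.60 for Notch3 (limma adjusted p = 0.199), and Cd3e (−0.31) had the lowest limma adjusted p, 0.0653.

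Of the 8 isomerases, Ppib, Fkbp2 and Fkbp11 rose in Sel1l CKO, Ppic and Fkbp7 were measured without passing the test, and Fkbp9, Fkbp10 and Fkbp14 had almost no reads. Of the 5 members that could be tested, 3 were called at an adjusted p under 0.05 and 0 were lower, where 3.94% of all tested genes were called in either direction and 2.98% were called higher. The 3 also passed a log2 fold change of 0.59, as 1.93% of tested genes did. For the same 3 genes the lowest Sel1l CKO value exceeded the highest control value, which held for 7.4% of tested genes. The median log2 fold change of the 5 was 0.87, against −0.01 over all tested genes. By size of increase Fkbp11 ranked 11, Fkbp2 82 and Ppib 139 of 10177.

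The sequences before the transcription starts of the 3 genes that rose are shown first, with that of Fkbp7 as a measured member that did not pass the test. They were read from RefSeq on GRCm38.p6, for the outermost start of each gene, 5′ to 3′ on the strand of the gene. They end at that start, or before it where annotated exons of the gene begin. For Ppib the RefSeq start, chr9:66060169, lies upstream of the gene span given below, and its distances are to that start. Ppib is chr9:66059919-66060168 on the plus strand, Fkbp2 is chr19:6980502-6980714, Fkbp11 is chr15:98728199-98728448 and Fkbp7 is chr2:76673117-76673348, the last 3 on the minus strand. Capitals mark CCACG or its complement on the other strand, the core of the ER stress response element.
Ppib: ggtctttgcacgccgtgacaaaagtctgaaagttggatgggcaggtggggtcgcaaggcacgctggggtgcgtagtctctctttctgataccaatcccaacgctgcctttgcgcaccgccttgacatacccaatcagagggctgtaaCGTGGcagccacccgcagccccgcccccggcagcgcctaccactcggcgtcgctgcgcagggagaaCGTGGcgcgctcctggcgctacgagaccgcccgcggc
Fkbp2: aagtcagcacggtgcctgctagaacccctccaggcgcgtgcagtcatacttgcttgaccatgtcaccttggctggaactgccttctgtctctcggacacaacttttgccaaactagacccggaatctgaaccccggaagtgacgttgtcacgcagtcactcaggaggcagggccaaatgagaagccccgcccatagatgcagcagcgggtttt
Fkbp11: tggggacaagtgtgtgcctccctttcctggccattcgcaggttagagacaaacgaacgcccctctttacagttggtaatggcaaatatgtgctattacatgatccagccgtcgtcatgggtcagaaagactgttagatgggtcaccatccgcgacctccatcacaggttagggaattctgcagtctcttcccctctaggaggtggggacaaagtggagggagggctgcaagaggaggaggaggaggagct
Fkbp7: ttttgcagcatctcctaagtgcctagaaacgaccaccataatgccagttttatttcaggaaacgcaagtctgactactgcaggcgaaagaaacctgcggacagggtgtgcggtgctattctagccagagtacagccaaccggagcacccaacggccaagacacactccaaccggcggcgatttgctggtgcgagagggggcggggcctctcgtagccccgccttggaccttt

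Windows of 250 bases before each start were searched on both strands for the full element (ERSE), its variant ERSE-II, the ATF6-type and XBP1-type words TGACGTGG and TGACGTG, the core CCACG, and the ATF4-type word TGATGNAAN. The core CCACG lies inside both ER stress elements, and TGACGTGG contains TGACGTG. Of 32851 such windows in the mouse, 0.11% held ERSE, 0.03% ERSE-II, 0.56% TGACGTGG, 1.65% TGACGTG, 28.34% CCACG and 3.44% TGATGNAAN. Ppib held the core 2 times, read as CGTGG, at 103 to 99 and at 37 to 33 bases before its start. The outermost windows of Fkbp2, Fkbp11 and Fkbp7 held none of these words. Inner annotated starts of Fkbp11 and Fkbp2 had 1 core each, at 32 to 28 and 24 to 20 bases before the start, but these windows lie inside the genes, with 250 and 164 of their 250 bases in annotated exons. Cores that reach past the start, outside these windows, were found for Ppib, Fkbp7 and the inner starts of Fkbp11 and Fkbp14. The inner start of Fkbp11 also had TGACGTG there. With the bases just past the start included, 32.77% of all windows held the core and 2.01% TGACGTG. A match is a match of letters only, and the core is common. Windows were found for 6 of the 8 genes, and those of Fkbp9 (1 core) and Fkbp14 (none) belong to genes with almost no reads. Fkbp10 and Ppic were not analysed here for motifs.

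Ppib, cyclophilin B, is the abundant cyclophilin of the ER lumen and a partner of prolyl 3-hydroxylase in collagen-producing cells. The gene (ENSMUSG00000032383.7) spans chromosome 9 from 66060222 to 66066623 on the plus strand. Its level, from replicate 1 to replicate 4, was 25.9, 26.2, 26.6 and 26.5 RPKM in control. The same replicates of Sel1l CKO were at 46.2, 42.4, 52.7 and 51.8 RPKM. The control libraries were nearly identical, while Sel1l CKO replicates 1 and 2 were lower than 3 and 4, and the groups did not overlap. Mean levels were 26.3 ± 0.314 RPKM in control and 48.3 ± 4.85 in Sel1l CKO (SD, n = 4 each). The log2 fold change was 0.87 (SE 0.08, limma adjusted p = 3.08e-04), a fold of 1.83 with a 95% interval of 1.62 to 2.06. The exact permutation test of the mean difference, two-sided, gave p = 0.0286, the smallest p that 4 against 4 libraries allow. Within replicates 1 and 2 the log2 difference was 0.76 and within 3 and 4 it was 0.97 (difference 0.21, limma adjusted p = 0.304 over all genes). This split of the replicates, used for the other members too, was taken because earlier results of these data set them apart. Between 6041 and 13818 reads per library lay behind these values. Snx22 overlaps Ppib by 1448 bases on the opposite strand, and the strand setting of the counting was not given in the sources used here, so reads of the pair may be mixed.

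Fkbp2 encodes FKBP13, a small soluble FKBP of the ER lumen. The gene (ENSMUSG00000056629.16) spans chromosome 19 from 6977741 to 6980501 on the minus strand. Control replicates 1 to 4 were at 8.84, 10.1, 9.27 and 10.4 RPKM, and Sel1l CKO replicates 1 to 4 at 18.1, 22.7, 21.8 and 22.8 RPKM. The lowest Sel1l CKO library, replicate 1, still stood above the highest control library. Mean levels were 9.66 ± 0.729 and 21.3 ± 2.23 RPKM (SD, n = 4 each). Fkbp2 rose by a log2 fold change of 1.13 (SE 0.09, limma adjusted p = 1.93e-04), a fold of 2.19 with a 95% interval of 1.90 to 2.53. The exact permutation p was again 0.0286. The increase was of similar size in replicates 1 and 2 (1.09) and in replicates 3 and 4 (1.17) on the log2 scale.

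Fkbp11 encodes FKBP19, an ER FKBP with a membrane anchor that is known from secretory cells such as plasma cells. The gene (ENSMUSG00000003355.7) spans chromosome 15 from 98724366 to 98728198 on the minus strand. It was low in control thymocytes, at 0.270, 0.602, 0.260 and 0.388 RPKM in replicates 1 to 4, from 42, 110, 35 and 56 reads. In Sel1l CKO replicates 1 to 4 it was at 3.49, 1.83, 4.99 and 3.88 RPKM, from 506, 352, 628 and 488 reads. Replicate 2 was the highest control library and also the lowest Sel1l CKO library, and the groups did not overlap. Mean levels were 0.380 ± 0.159 and 3.55 ± 1.31 RPKM (SD, n = 4 each), a ratio of 9.33. On the log2(RPKM + 0.1) scale the change was 2.90 (SE 0.31, limma adjusted p = 9.97e-04), a fold of 7.44 with a 95% interval of 4.55 to 12.2, and the exact permutation p was 0.0286. Within replicates 1 and 2 the log2 difference was 2.37 and within 3 and 4 it was 3.42 (difference 1.06, limma adjusted p = 0.369). The size depends on the pseudocount, since the log2 fold change was 1.68 with a pseudocount of 1, and the adjusted p stayed under 0.05 there.

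**Figure D1:**
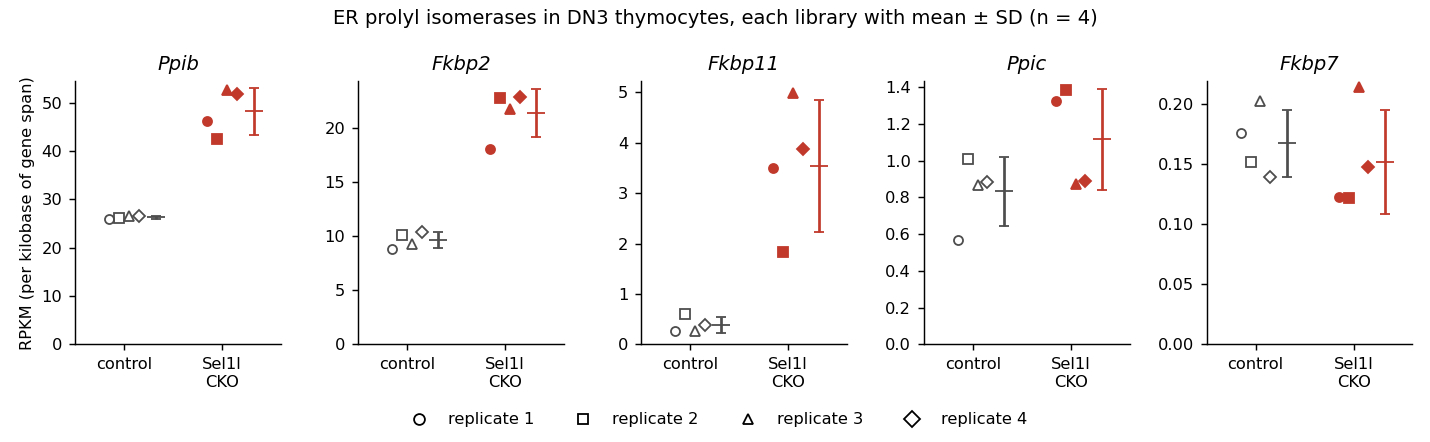
RPKM per kilobase of gene span (vertical axis, from 0, a scale of its own in each panel) of the 5 measured isomerases in 4 control (open) and 4 Sel1l CKO (filled) libraries, with symbols for the replicate number and bars for mean ± SD. The groups are apart for Ppib, Fkbp2 and Fkbp11 and overlap for Ppic and Fkbp7.

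Ppic encodes cyclophilin C, a further cyclophilin of the secretory pathway. The gene (ENSMUSG00000024538.8) spans chromosome 18 from 53406332 to 53418115 on the minus strand. Control replicates 1 to 4 gave 0.569, 1.01, 0.867 and 0.881 RPKM. Sel1l CKO replicates 1 to 4 gave 1.32, 1.38, 0.870 and 0.888 RPKM. Replicates 1 and 2 of Sel1l CKO lay above all controls, and replicates 3 and 4 lay within the control range. The mean was 0.832 ± 0.187 RPKM in control and 1.12 ± 0.275 in Sel1l CKO (SD, n = 4 each). The log2 fold change of 0.38 (SE 0.20, limma adjusted p = 0.323) did not pass the test, and its 95% interval of −0.07 to 0.83 includes both no change and an increase near that of Ppib. In replicates 1 and 2 the log2 difference was 0.75 and in replicates 3 and 4 it was 0.01. The change in replicates 3 and 4 minus that in 1 and 2 was −0.75 (SE 0.30, limma adjusted p = 0.277 over all genes), a comparison added after the values were seen.

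Fkbp7 encodes FKBP23, an ER FKBP with calcium-binding EF hands that binds the chaperone BiP. The gene (ENSMUSG00000002732.14) spans chromosome 2 from 76663044 to 76673116 on the minus strand. Its level was 0.176, 0.152, 0.203 and 0.139 RPKM in control and 0.123, 0.122, 0.214 and 0.148 RPKM in Sel1l CKO, replicates 1 to 4, from 47 to 73 reads per library. The ranges overlapped, and replicate 3 was the highest library of each group. The log2 fold change was −0.10 (SE 0.14, limma adjusted p = 0.728) with a 95% interval of −0.41 to 0.21, which leaves out an increase of the size seen in Ppib.

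The remaining 3 members belong to the larger or collagen-associated FKBPs. Fkbp9 (ENSMUSG00000029781.7, chromosome 6 from 56832059 to 56879358, plus strand) encodes an FKBP with several isomerase domains, and had 1, 0, 0 and 1 reads in control and 1, 0, 0 and 4 reads in Sel1l CKO replicates 1 to 4. Fkbp10 (ENSMUSG00000001555.10, chromosome 11 from 100415697 to 100424824, plus strand) encodes FKBP65, a chaperone of collagen, and Fkbp14 (ENSMUSG00000038074.16, chromosome 6 from 54577604 to 54597308, minus strand) encodes FKBP22, which carries EF hands. Fkbp10 and Fkbp14 were listed at 0 in all 8 libraries. A count of 0 allows up to 3 reads, which is 0.00652 to 0.00999 RPKM for Fkbp10 and 0.00302 to 0.00463 RPKM for Fkbp14, counting error only. Nt5c3b overlaps Fkbp10 by 2504 bases and Plekha8 overlaps Fkbp14 by 2198 bases, each on the opposite strand, and how the counting treated reads in these stretches was not given in the sources used here. No difference was detectable for these 3 genes.

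Levels were compared between genes as RPKM over exon length, the recovered reads divided by the annotated exon bases in place of the gene span. On this scale the order in control was Ppib at 51.4 ± 0.614, Fkbp2 at 16.0 ± 1.21, Ppic at 6.92 ± 1.55, Fkbp7 at 1.14 ± 0.191 and Fkbp11 at 0.537 ± 0.225 (SD, n = 4). In Sel1l CKO it was Ppib at 94.4 ± 9.48, Fkbp2 at 35.4 ± 3.70, Ppic at 9.28 ± 2.29, Fkbp11 at 5.01 ± 1.85 and Fkbp7 at 1.03 ± 0.293. The library ranges of neighbours in either order were apart, while Fkbp9, Fkbp10 and Fkbp14, at or near 0, could not be ordered. Fkbp11 thus stood below Fkbp7 in control and above it in Sel1l CKO. Per kilobase of gene span, Fkbp11 was above Fkbp7 in control too, so that step of the order depends on the length used. The same holds for Ppic and Fkbp11 in Sel1l CKO, where Fkbp11 (3.55 RPKM) was above Ppic (1.12 RPKM) per kilobase of gene span.

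**Figure D2:**
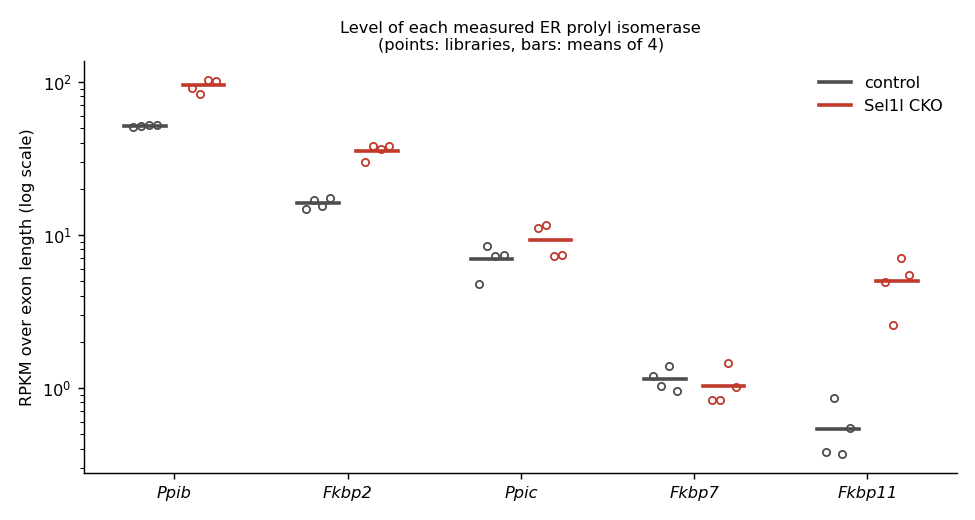
RPKM over exon length (vertical axis, log scale) of the 5 measured isomerases, with points for libraries and bars for means of 4. Ppib is the highest in both groups, and Fkbp11 moves from 0.537 in control to 5.01 in Sel1l CKO, past Fkbp7.

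The 8 genes together took 209 ± 5.68 RPM (reads scaled to the library total) in control and 398 ± 34.6 in Sel1l CKO (SD, n = 4 each), a ratio of 1.90 that describes genes already seen above. Ppib made up 67.7 ± 2.28% of their summed level per kilobase of exon in control and 64.9 ± 2.52% in Sel1l CKO. Fkbp2 made up 21.1 ± 0.905% and 24.4 ± 2.54%. The share of Fkbp11 was 0.701 ± 0.274% in control and 3.41 ± 1.10% in Sel1l CKO, with no overlap of the libraries.

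The change of each gene was set against that of every other measured member, as the log2 ratio within a library compared between groups by a two-sided exact permutation test, with p adjusted over the 10 pairs. In 6 pairs the change differed, each with p = 0.0286 and an adjusted p of 0.0476 in the exact test. Fkbp11 rose more than each of the others, by 1.76 against Fkbp2, 2.03 against Ppib, 2.52 against Ppic and 2.99 against Fkbp7 on the log2 scale. Fkbp2 rose by 1.23 and Ppib by 0.96 relative to Fkbp7. The difference between Fkbp2 and Ppib was 0.26 with an adjusted p of 0.0714 in the exact permutation test. Ppic did not differ past the threshold from Fkbp2 (0.75, adjusted p = 0.0714), Ppib (0.49, adjusted p = 0.159) or Fkbp7 (0.48, adjusted p = 0.257) by the exact test. With any 1 control library left out, 4 pairs reached the smallest p and 0 passed the adjustment, which needs at least 6 pairs at that p.

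Prolyl isomerases outside the ER set were examined next, from lists chosen by family. Of 28 other FKBPs, cyclophilins and parvulins, 25 could be tested, and 0 passed an adjusted p of 0.05 in limma, while 6 had an unadjusted p under 0.05, as did 19.8% of all tested genes. The share of all tested genes past the adjusted p was 3.94%. With limma voom on recovered reads 0 passed as well. Their median log2 fold change was 0.01, and their values ran from −0.24 to 0.63. The cytosolic Fkbp5, a co-chaperone of steroid receptors with Hsp90, had the lowest p of the 9 tested FKBPs and was at 15.4 ± 0.501 RPKM in control and 13.1 ± 1.42 in Sel1l CKO (log2 fold change −0.24, limma adjusted p = 0.155). Nktr, a large nuclear cyclophilin, was at 4.70 ± 0.551 and 7.46 ± 1.89 RPKM (log2 fold change 0.63, limma adjusted p = 0.0915), and it was called without Sel1l CKO replicate 1.

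Ppib and several ER FKBPs are known to work on collagen, so the genes of ER collagen folding and modification were listed too. Of 18 genes, 12 were tested and 2 rose, with a median log2 fold change of 0.02, or −0.03 without P3h3, which reached the minimum only through Sel1l CKO. The share of all tested genes called higher was 2.98%. Serpinh1, which encodes the collagen chaperone HSP47, rose from 0.226 ± 0.164 to 9.81 ± 3.35 RPKM (log2 fold change 4.97, limma adjusted p = 1.15e-04). P4hb, protein disulfide isomerase and a subunit of prolyl 4-hydroxylase, rose from 33.2 ± 1.74 to 66.7 ± 6.05 RPKM (log2 fold change 1.0, limma adjusted p = 1.51e-04). P3h1 and Crtap, the partners of Ppib in the prolyl 3-hydroxylation complex, had log2 fold changes of −0.03 and 0.09 and limma adjusted p of 0.900 and 0.680. P4ha1, the catalytic subunit that pairs with P4hb, was at 0.962 ± 0.282 RPKM in control and 0.548 ± 0.0672 in Sel1l CKO (log2 fold change −0.68, limma adjusted p = 0.0627). P4ha1 was called lower with limma voom on recovered reads and with replicates 1 and 2 against 3 and 4 as a term.

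ER chaperones and disulfide isomerases, the other folding enzymes of the same compartment, were called higher in 16 of the 18 listed genes that reached the minimum of 0.1 RPKM in control, with a median log2 fold change of 1.29. Over all tested genes 2.98% were called higher, which applies to each list in this paragraph. Pdia5, the remaining gene of the list, reached the minimum only through Sel1l CKO (0.0856 RPKM in control, 0.347 in Sel1l CKO). Sdf2l1, a partner of BiP, had a log2 fold change of 2.51, and Hspa5, which encodes BiP, one of 1.82. Of the KDEL receptors, which return ER proteins from the Golgi, Kdelr2 rose (log2 fold change 0.58, limma adjusted p = 0.00271) and Kdelr1 was at 0.19 without passing. Among 7 transcription factors of the unfolded protein response 5 rose, namely Xbp1, Atf6, Atf4, Ddit3 and Creb3l2, by log2 fold changes of 0.69, 0.61, 0.90, 1.34 and 2.01. Fkbp11 thus lay above the largest value of the chaperone list, Fkbp2 below its median, and Ppib below Fkbp2, as a description of values.

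**Figure D3:**
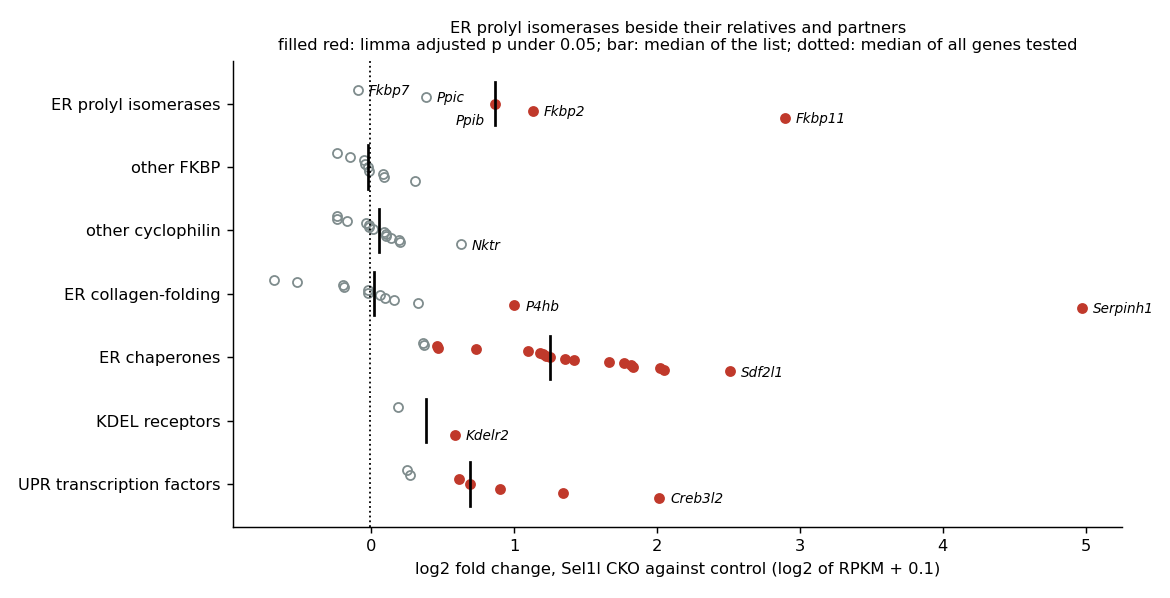
Log2 fold change of Sel1l CKO against control (horizontal axis, log2 of RPKM + 0.1) for each tested gene of the ER prolyl isomerases and 6 other lists, with bars for list medians and filled red points for a limma adjusted p under 0.05. The other FKBPs and cyclophilins lie around 0, apart from Nktr at 0.63, and Fkbp11 and Serpinh1 lie farthest to the right of their lists.

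Markers of other cell types were measured because these enzymes are abundant in secretory and collagen-producing cells, and fewer cells of a type cannot be told apart from less RNA per cell in bulk samples. Of 11 B cell or plasma cell markers 10 were in the table, with a summed level of 18.6 to 20.8 RPKM in control and 15.5 to 37.1 in Sel1l CKO. Mzb1, an ER protein of plasma and B cells, ranged from 8.13 to 12.5 RPKM in control and from 9.96 to 29.4 in Sel1l CKO (log2 fold change 0.85, limma adjusted p = 0.158), and Cd79b from 8.18 to 10.1 and from 5.28 to 8.17. Of the plasma cell markers, Jchain was at most 0.109 RPKM, Sdc1 at most 0.0566 and Prdm1 at most 0.00215 in any library. Irf4 ranged from 0.0556 to 0.273 RPKM in control and from 0.0761 to 0.173 in Sel1l CKO. The marker values and sums are per kilobase of gene span, which places long genes low. Fibroblast markers (8 of 10 in the table) summed to 1.19 to 1.53 RPKM in control and 1.03 to 1.43 in Sel1l CKO. Most of this sum was Pdgfrb, at 1.08 to 1.46 RPKM in control and 0.999 to 1.37 in Sel1l CKO. Col1a1 was at most 0.0879 RPKM, and Fbn1, Sparc and Col6a1 were at most 0.0205. Col1a2, Col3a1 and Dcn did not pass 0.00393 RPKM in any library. Thymic epithelial markers (10 of 10) summed to 10.5 to 13.7 and 5.09 to 9.20 RPKM, lower in Sel1l CKO, where Epcam fell (log2 fold change −0.95, limma adjusted p = 0.00486). Most of this sum was Epcam (3.04 to 4.87 and 1.79 to 2.23 RPKM) and Cldn4 (5.81 to 8.84 and 2.44 to 6.91). Foxn1, Trp63 and Krt5 did not pass 0.0209 RPKM in any library, and Psmb11, Krt8 and Prss16 did not pass 0.179. Ly75 ranged from 0.218 to 0.361 RPKM and Aire from 0.0991 to 0.252. Dendritic cell and macrophage markers (8 of 10) summed to 3.50 to 6.18 RPKM and 1.91 to 3.96 RPKM. Markers of later thymocytes (9 of 10) summed to 9.61 to 26.5 and 9.26 to 17.1 RPKM, and 0 of 9 passed the test. The part of these cells in the isomerase values was not tested.

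For each of the 3 genes that rose, the genes with the most similar profile over the 8 libraries were taken by the root mean square difference of centred log2 values. For Ppib these were Cope (0.063), Ssr1 (0.068) and Lman1 (0.071), whose own log2 fold changes were 0.87, 0.80 and 0.83. For Fkbp2 they were Uap1 (0.095), Slc35b1 (0.104) and Magt1 (0.105), with log2 fold changes of 1.02, 1.27 and 1.0. For Fkbp11 they were Sdf2l1 (0.468), Sec24d (0.532) and Hyou1 (0.568), with log2 fold changes of 2.51, 2.22 and 2.05. No gene came as near to Fkbp11 as the named genes came to Ppib or Fkbp2. The measure includes the difference between groups, so it favours genes of like fold change. It also includes scatter between libraries, and the SE of the change was 0.31 for Fkbp11, 0.08 for Ppib and 0.09 for Fkbp2.

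**Figure D4:**
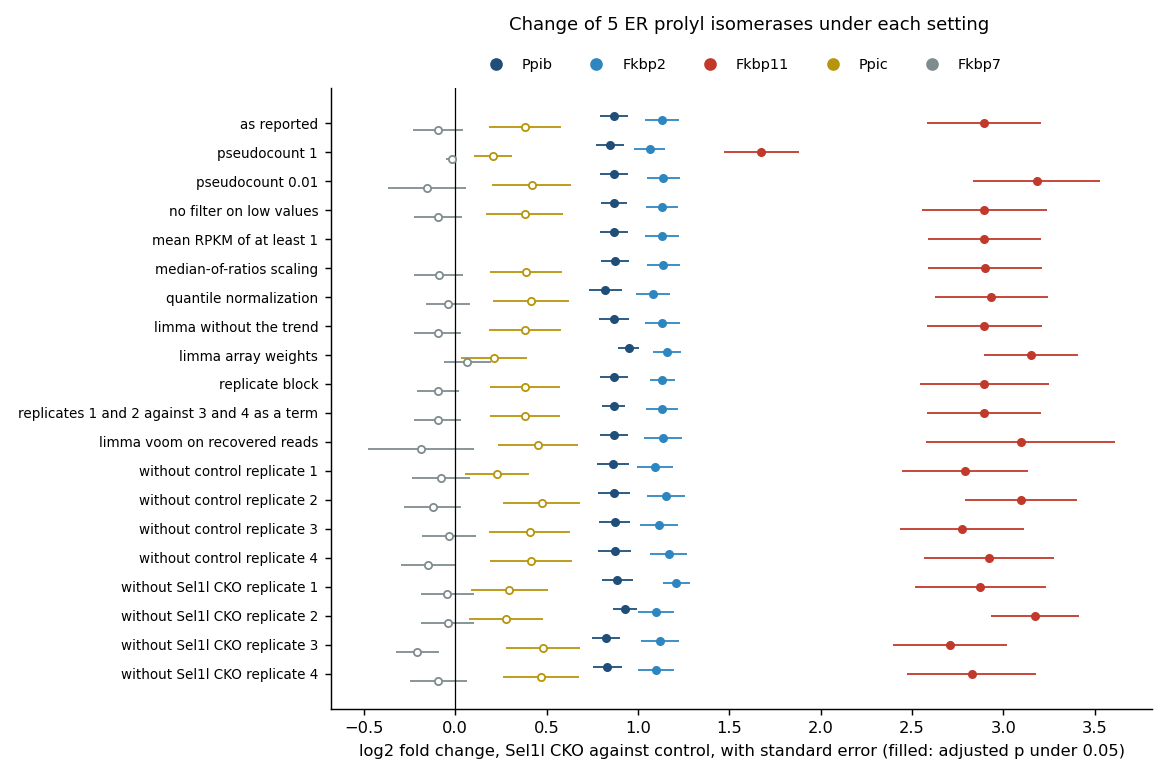
Log2 fold change with standard error (horizontal axis) of the 5 measured isomerases as reported and under 19 other settings (rows), with filled points for an adjusted p under 0.05. Ppib, Fkbp2 and Fkbp11 are filled in every row, and Ppic and Fkbp7 in none and without points at a mean RPKM of at least 1.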

How the data were processed

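RNA of sorted DN3 thymocytes was made into stranded mRNA libraries and sequenced as paired ends by the authors. Per the labels and the study's methods, reads were aligned with STAR 2.5.2b to GRCm38 and counted per protein-coding gene with HTSeq 2.7, and DESeq2 was used by the authors for their own tests. The deposited values are RPKM. How the RPKM values were made is not given in the sources used here. The steps between low values were whole reads (tolerance 0.02) on the GENCODE M21 gene span for 75.3% of 15624 genes and on exon length for 3.2%, so the span, introns included, entered the RPKM. With the length solved from the values for a further 3329 genes, whole reads were recovered for 96.6%, which covered 93.64% to 96.83% of the reads of a library. The lengths behind Fkbp2, Fkbp11, Ppib and Ppic were solved in this way. Long genes are placed low on this scale. The ratio of RPKM between libraries within a gene does not depend on the length. The reported fold changes do, since the pseudocount understates the change of genes placed low.

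Genes with a mean of at least 0.1 RPKM over the 8 libraries were tested with limma 3.58.1 (R 4.3.3) on log2(RPKM + 0.1) with a trend and no term besides genotype. Benjamini-Hochberg adjustment ran over 10177 genes. Limma was used in place of the count test because the table holds RPKM. Fkbp11 passed the minimum on its control libraries alone. Single values were compared by two-sided exact permutation over 70 assignments of 4 against 4. A replicate block was fitted as an alternative. Functions were tested on simulated data. Named genes were Sel1l, the 8 members, in each other list the genes past an adjusted p of 0.05 or the gene with the lowest p, and the 3 nearest profiles of each member past the threshold. A result that this rule names is not reported here. P4ha1, P3h1, P3h3, Crtap, Mia3, Plod1, Kdelr1, Cd79b and the other marker genes given with values were named after their values were seen or as background, outside that rule. The members and lists were chosen with earlier results of these data known.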

Additional observations from a re-analysis of the deposited data

How the results depend on the processing

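The calls of Ppib, Fkbp2 and Fkbp11 were the same under all 19 alternatives, which were other pseudocounts, low-value minimums, scalings and fits, and leaving out each of the 8 libraries. Their log2 fold changes ranged from 0.82 to 0.95, 1.06 to 1.21 and 1.68 to 3.18. Ppic and Fkbp7 were not called in the 18 alternatives that measured them, and Fkbp7 turned to 0.0658 with array weights. Over all genes 401 calls became 657 with array weights (462 higher, 195 lower) and 598 with replicates 1 and 2 against 3 and 4 as a term (373 and 225). With voom on recovered reads there were 478 (324 and 154). Calls numbered 234 to 258 with 1 control library left out and 303 to 345 with 1 Sel1l CKO library left out. These last fits had fewer libraries, and the cause of the differences was not tested. The labels name no batch behind the term of replicates 1 and 2 against 3 and 4. Of the other prolyl isomerases 1, Nktr, was called with array weights and with that term, and 0 to 1 when a library was left out. Of the collagen-folding genes 1 more was called with voom and with that term (P4ha1), with array weights and without Sel1l CKO replicate 1 (Mia3), and without Sel1l CKO replicate 4 (Plod1). Pairs of members with a different change numbered 0 to 8 when a library was left out. On exon length 2 members changed places in the order of levels of each group, Fkbp11 with Fkbp7 in control and Fkbp11 with Ppic in Sel1l CKO.

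The replicate numbers did not match single libraries between the groups. Same-numbered libraries deviated from their group means with correlations of 0.114, 0.078, 0.312 and 0.019, and control replicates 1, 2 and 4 correlated best with another number. Control 1 and 2 correlated at 0.078 to 0.258 with Sel1l CKO 1 and 2, and at −0.193 to −0.142 with 3 and 4. For control 3 these were −0.278 to −0.276 and 0.311 to 0.312, and control 4 ranged from −0.054 to 0.062. The replicates 1 and 2 thus shared deviations between groups, apart from control 4, and whether this was a batch was not tested. A replicate block gave 292 calls, with the same 3 isomerases among them. Fkbp9, Fkbp10 and Fkbp14 had at most 4 reads in a library, too few for a comparison.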
